A study of Homo sapiens with 8 samples.

Results

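ATF4 and 33 further genes of amino acid stress were followed in RNA sequencing of G401 cells. G401 is an established rhabdoid kidney tumor line without SMARCB1, which is a core protein of the SWI/SNF complexes that remodel chromatin. The 34 genes were taken as a list of regulators, enzymes, transporters and secreted factors of the ATF4 program. The rule used no measured value, although the list was proposed with results of these data known. All 34 were among the 69215 genes counted, and 32 had enough reads to be tested among 15931 genes.

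The groups were derivatives of G401 with Tet-On transgenes, in which doxycycline (Dox) switches on SMARCB1 or, as a control for Dox and for a foreign protein, GFP. SMARCB1 Dox was the SMARCB1 line with 0.1 µg/ml Dox for 12 h, and SMARCB1 DMSO was the same line with the solvent dimethylsulfoxide (DMSO). GFP Dox and GFP DMSO were the GFP line treated in the same ways, so that all 4 groups carried a transgene and none was the untouched parental line. Whether each line was a clone is not given in the sources used here. Each group had 2 libraries, and the study's methods describe plates pooled within a condition and experiments done in duplicate. Where the duplicates were not separate cultures, the p-values below measure technical spread only.

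ATF4 is a transcription factor whose mRNA is present in unstressed cells and whose protein is made mainly when the initiation factor eIF2 is phosphorylated, as happens when amino acids run short, when unfolded proteins accumulate in the endoplasmic reticulum, or when mitochondria or heme supply fail. It pairs with C/EBP family proteins on a short DNA element and switches on genes for amino acid uptake, amino acid synthesis and the charging of transfer RNAs, as well as brakes on growth and on the stress response. Because ATF4 is controlled largely at translation and protein stability, the level of its mRNA is not a measure of its protein, and no protein was measured here.

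Counts assigned to genes ranged from 29632090 to 37597477 per library, and mitochondrially encoded genes took 18.9% of them in GFP Dox replicate 1 to 27.9% in SMARCB1 DMSO replicate 1. The induced gene matched the labels, with 30474 and 29383 SMARCB1 counts in SMARCB1 Dox, 10 and 21 in SMARCB1 DMSO and 0 in all 4 GFP libraries. VIM, KRT8 and KRT18, which rhabdoid cells express, had 7408 to 45130 counts in every library. Of 7 markers of leukocytes, endothelium, liver and heart, none exceeded 16 counts in a library. In bulk RNA, a different share of cells expressing a gene and a different amount per cell cannot be told apart.

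The DNA element that ATF4 and its partners bind in many of these promoters (the C/EBP-ATF response element) was searched as TGATGNAA on either strand, that is as TTNCATCA on the other. RefSeq windows from 250 bases before to 50 bases after each start of a gene (GRCh38.p14) were at hand for 29 of the 34 genes. A match stood in at least 1 window of 9 of these genes (31%), beside 4.46% of all 27305 genes with windows. Because the list was drawn from genes of the ATF4 program, a higher share is no independent result. The members had more windows, on average 1.62 per gene against 1.29 over all genes. With the stricter TGATGCAA, or TTGCATCA on the other strand, 6 of the 29 (20.7%) and 1.08% of all genes matched. The stricter matches lay in windows of CEBPG, CHAC1, FGF21, JDP2, SLC1A4 and SLC1A5, and the others in those of ASNS, SLC3A2 and SLC7A1.

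Stretches are shown for JDP2 and CHAC1, which rose with Dox in the SMARCB1 line, for ASNS, the enzyme of asparagine synthesis and the textbook target, and for CEBPG, which encodes a partner of ATF4. They read 5′ to 3′ on the strand of the gene, with the match in capitals, and are shorter for CHAC1 and ASNS, where GENCODE annotates a longer 5′ UTR over the same bases. The JDP2 stretch was chr14:75427962-75428021 (plus strand), the CHAC1 stretch chr15:40953252-40953279 (plus), the ASNS stretch chr7:97872459-97872486 (minus) and the CEBPG stretch chr19:33374045-33374104 (plus).
JDP2: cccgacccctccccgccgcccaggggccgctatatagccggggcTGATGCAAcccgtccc
CHAC1: tcccctgccgTTGCATCActcctgccag
ASNS: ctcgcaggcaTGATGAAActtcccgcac
CEBPG: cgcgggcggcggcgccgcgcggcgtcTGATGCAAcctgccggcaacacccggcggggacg
The match began 16 bases before a RefSeq start of JDP2 at position 75428022, 209 before that of CHAC1 at 40953471, 68 before that of ASNS at 97872408 and 42 before that of CEBPG at 33374113. These RefSeq starts lie inside the wider gene spans of GENCODE, which are the positions printed with the genes below, so the matches also lie inside those spans. These matches describe the letters only, and binding of ATF4 was not measured.

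The first comparison asked which of these RNAs changed when SMARCB1 was re-expressed for 12 h. In the SMARCB1 line, Dox raised 7 of the 32 tested genes and lowered 1. The genes that rose were the regulators JDP2 and TRIB3, the glutathione-degrading enzyme gene CHAC1, the enzyme genes SHMT2 and CTH, the transporter gene SLC1A4 and the receptor gene VLDLR, by 1.3-fold to 3.88-fold. The glutamine transporter gene SLC38A2 fell. Calls were made with edgeR's quasi-likelihood test at a Benjamini-Hochberg adjusted p under 0.05 over all genes tested, where 14% of all genes were called, 8.33% as higher and 5.69% as lower. Of the members, 25% were called, and their median log2 fold change was 0.17 beside 0.00 over all genes. ATF4 mRNA itself was not called in this fit.

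**Figure D1:**
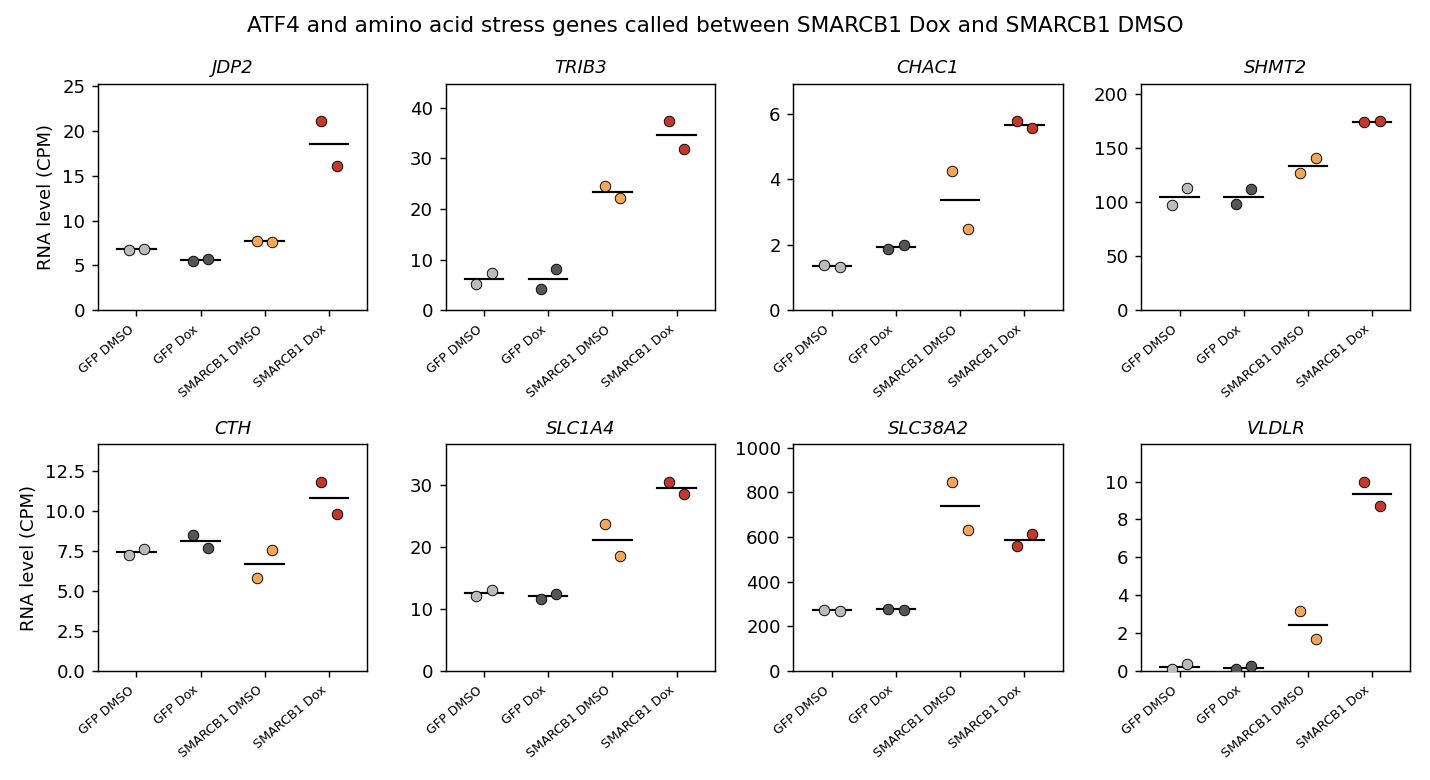
RNA levels, in CPM (counts scaled with TMM factors to equal library sizes, linear axes from 0), of the 8 members called between SMARCB1 Dox and SMARCB1 DMSO, with each point a library and each bar the mean of the 2 libraries of a group. JDP2 stood at 16.1 and 21.1 CPM in SMARCB1 Dox and between 5.49 and 7.72 in the other 6 libraries, whereas TRIB3, CHAC1, SHMT2, SLC1A4, SLC38A2 and VLDLR were already higher in SMARCB1 DMSO than in both GFP groups.

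Among the regulators, the largest change was that of JDP2 (ENSG00000140044, chromosome 14, 75427716 to 75474111, plus strand, GRCh38), which encodes a bZIP repressor that binds AP-1 and cAMP response elements. Its level was 21.1 and 16.1 CPM in SMARCB1 Dox, 7.72 and 7.64 in SMARCB1 DMSO, 5.49 and 5.77 in GFP Dox, and 6.78 and 6.85 in GFP DMSO. Both SMARCB1 Dox libraries lay above the other 6, which spanned a narrow range. The log2 fold change of JDP2 in the SMARCB1 line was 1.28 (SE 0.14, edgeR adjusted p = 2.08e-06), and it was called in all 16 alternatives, between 1.07 and 1.46. JDP2 shares 26 exonic bases with an antisense gene that had 18 to 41 counts.

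TRIB3 (ENSG00000101255, chromosome 20, 362835 to 397559, plus strand) encodes a pseudokinase that is induced by ATF4 and CHOP and restrains them in turn. It stood at 37.3 and 31.9 CPM in SMARCB1 Dox, 24.6 and 22.1 in SMARCB1 DMSO, 4.22 and 8.22 in GFP Dox, and 5.18 and 7.32 in GFP DMSO. The 4 SMARCB1-line libraries lay far above the 4 GFP-line libraries, and Dox added a smaller step. TRIB3 rose by 0.57 on the log2 scale (SE 0.17, edgeR adjusted p = 0.0283), a call that was lost with DESeq2, without SMARCB1 Dox replicate 1 and without SMARCB1 DMSO replicate 2.

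ATF4 (ENSG00000128272, chromosome 22, 39519695 to 39522683, plus strand) was at 293 and 274 CPM in SMARCB1 Dox, 257 and 236 in SMARCB1 DMSO, 208 and 206 in GFP Dox, and 220 and 210 in GFP DMSO. The SMARCB1 Dox libraries lay above those of SMARCB1 DMSO, and these above all GFP libraries, by small steps. Its log2 fold change was 0.20 (SE 0.08, edgeR adjusted p = 0.0999). The call changed with the scaling, at 0.30 (edgeR adjusted p = 0.0183) with library totals.

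DDIT3 (ENSG00000175197, chromosome 12, 57516588 to 57521737, minus strand), which encodes the stress factor CHOP, was low, at 4.19 and 3.12 CPM in SMARCB1 Dox, 5.39 and 2.79 in SMARCB1 DMSO, 2.11 and 2.32 in GFP Dox, and 2.4 and 1.95 in GFP DMSO. The SMARCB1 DMSO libraries spread more widely than both SMARCB1 Dox libraries. The log2 fold change was -0.15 (SE 0.25, edgeR adjusted p = 0.771). DDIT3 shares 27.2% of its exonic bases with MARS1 on the opposite strand, so its counts depend on how strand was handled in counting, which is not given in the sources used here.

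The other regulators did not pass the test. CEBPG, whose product pairs with ATF4, had a log2 fold change of 0.26 (edgeR adjusted p = 0.076), ATF5, another bZIP factor of the stress response, 0.19 (0.305), CEBPB 0.03 (0.926) and the stress-induced chromatin protein gene NUPR1 -0.20 (0.224). CEBPG was called without SMARCB1 Dox replicate 2 (0.38) and ATF5 without SMARCB1 DMSO replicate 2 (0.40).

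Of the 4 genes that act as brakes or effectors of stress, CHAC1 rose. CHAC1 (ENSG00000128965, chromosome 15, 40952962 to 40956512, plus strand), which encodes an enzyme that breaks down glutathione, was at 5.76 and 5.55 CPM in SMARCB1 Dox, 4.25 and 2.49 in SMARCB1 DMSO, 1.88 and 1.99 in GFP Dox, and 1.39 and 1.33 in GFP DMSO. In both lines the Dox libraries lay above the DMSO libraries. The log2 fold change of CHAC1 was 0.76 in the SMARCB1 line (SE 0.22, edgeR adjusted p = 0.0216) and 0.51 in the GFP line (SE 0.27, adjusted p = 1). The call in the SMARCB1 line was lost with DESeq2 and without any of SMARCB1 Dox replicate 1, SMARCB1 Dox replicate 2 and SMARCB1 DMSO replicate 2, the last of which left 0.41. DDIT4 and SESN2, which dampen mTORC1, and PPP1R15A, which directs the dephosphorylation of eIF2, had log2 fold changes of 0.02, 0.15 and 0.16 (edgeR adjusted p from 0.28 to 0.93).

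In serine and one-carbon metabolism, SHMT2 rose among 5 genes. SHMT2 (ENSG00000182199, chromosome 12, 57229573 to 57234935, plus strand) encodes the mitochondrial enzyme that splits serine into glycine and a one-carbon unit. Its level was 174 and 175 CPM in SMARCB1 Dox, 127 and 141 in SMARCB1 DMSO, 98.4 and 112 in GFP Dox, and 97.6 and 113 in GFP DMSO. The groups formed steps, with both SMARCB1 Dox libraries on top and the GFP groups overlapping at the bottom. The log2 fold change of SHMT2 was 0.38 (SE 0.09, edgeR adjusted p = 0.00545), lost without SMARCB1 DMSO replicate 1. MTHFD2, the next enzyme of the mitochondrial pathway, had 0.23 (edgeR adjusted p = 0.0551) and PSPH, the last step of serine synthesis, 0.29 (0.0977). MTHFD2 lay at the threshold, with an adjusted p of 0.0329 by DESeq2, 0.0469 by edgeR with the stricter low-count filter and 0.038 without SMARCB1 Dox replicate 2. The earlier steps, PHGDH and PSAT1, had 0.16 and -0.14 (edgeR adjusted p = 0.419 and 0.466).

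CTH was called among the 5 other synthesis genes. CTH (ENSG00000116761, chromosome 1, 70411218 to 70439851, plus strand), which encodes the enzyme that makes cysteine from cystathionine, was at 11.8 and 9.81 CPM in SMARCB1 Dox, 5.83 and 7.55 in SMARCB1 DMSO, 8.48 and 7.71 in GFP Dox, and 7.22 and 7.63 in GFP DMSO. The SMARCB1 Dox libraries lay above the other 6, which overlapped across 3 groups. The log2 fold change of CTH was 0.69 (SE 0.15, edgeR adjusted p = 0.00385), and the call was lost without SMARCB1 Dox replicate 1 and without SMARCB1 DMSO replicate 1.

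ASNS (ENSG00000070669, chromosome 7, 97851677 to 97872542, minus strand), which makes asparagine, was low in every library. It had 2.56 and 2.66 CPM in SMARCB1 Dox, 2.64 and 3.43 in SMARCB1 DMSO, 1.56 and 1.94 in GFP Dox, and 1.39 and 2.01 in GFP DMSO. The SMARCB1 Dox and SMARCB1 DMSO libraries overlapped, and the log2 fold change was -0.22 (SE 0.24, edgeR adjusted p = 0.62). In the annotation, 49.3% of the exonic bases of ASNS also belong to another gene on the same strand, and reads that fall there are ambiguous for the counting mode used and are not counted for either gene. The level of ASNS is therefore a lower limit. The same holds, for smaller shares, for NUPR1 (16.5%), PYCR1 (14.1%), DDIT3 (8.03%) and ATF5 (2.56%). ATF5 also shares 19.5% of its exonic bases with NUP62 on the opposite strand, so its counts depend on how strand was handled. CBS, which makes cystathionine and has a near-identical copy on chromosome 21, had 0.17 (edgeR adjusted p = 0.757), and the proline synthesis genes ALDH18A1 and PYCR1 had -0.07 and 0.07 (adjusted p = 0.645 and 0.675).

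Of the 7 transporters, 1 rose, 1 fell and 5 were not called. SLC1A4 (ENSG00000115902, chromosome 2, 64988477 to 65023865, plus strand), an exchanger of alanine, serine and cysteine, was at 30.5 and 28.6 CPM in SMARCB1 Dox, 23.8 and 18.5 in SMARCB1 DMSO, 11.7 and 12.5 in GFP Dox, and 12.1 and 13 in GFP DMSO. Its levels rose in steps from both GFP groups to SMARCB1 DMSO and SMARCB1 Dox, with a log2 fold change of 0.49 for Dox in the SMARCB1 line (SE 0.12, edgeR adjusted p = 0.0064). Without SMARCB1 DMSO replicate 2 it was 0.32 and not called, and the call was also lost without SMARCB1 Dox replicate 1.

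SLC38A2 (ENSG00000134294, chromosome 12, 46358188 to 46372773, minus strand), which encodes the glutamine and neutral amino acid carrier SNAT2, was at 559 and 615 CPM in SMARCB1 Dox, 845 and 631 in SMARCB1 DMSO, 279 and 272 in GFP Dox, and 275 and 267 in GFP DMSO. The second SMARCB1 DMSO library lay close to the SMARCB1 Dox libraries, while the first, which also had the highest mitochondrial share of counts, lay well above them. The fall was -0.33 on the log2 scale (SE 0.10, edgeR adjusted p = 0.0344). It was -0.11 and not called without SMARCB1 DMSO replicate 1, and it was called in 9 of 16 alternatives. The call was also lost without SMARCB1 Dox replicate 1, GFP Dox replicate 1 or GFP Dox replicate 2. The part of the mitochondrial share in this value was not tested.

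The other 5 transporters were SLC7A11, the cystine carrier, its heavy chain partner SLC3A2, the leucine carrier SLC7A5, the cationic carrier SLC7A1 and the glutamine carrier SLC1A5. Their log2 fold changes were between 0.13 and 0.19, with edgeR adjusted p from 0.184 to 0.405. SLC3A2 was called without SMARCB1 DMSO replicate 1 (0.33).

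VLDLR (ENSG00000147852, chromosome 9, 2621182 to 2660056, plus strand), which encodes a lipoprotein receptor and is a known ATF4 target, showed the largest change of all members. It stood at 9.97 and 8.7 CPM in SMARCB1 Dox, 3.16 and 1.7 in SMARCB1 DMSO, 0.0974 and 0.246 in GFP Dox, and 0.0888 and 0.365 in GFP DMSO. In reads, these were 355 and 304 counts in SMARCB1 Dox, 92 and 56 in SMARCB1 DMSO, 3 and 9 in GFP Dox, and 3 and 14 in GFP DMSO. VLDLR was thus near the floor of 3 counts in the GFP line and well measured in the SMARCB1 line. Its log2 fold change with Dox in the SMARCB1 line was 1.96 (SE 0.26, edgeR adjusted p = 1.85e-05), and it was called in all 16 alternatives. XPOT, the exporter of transfer RNAs from the nucleus, had -0.05 (edgeR adjusted p = 0.726).

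Of the secreted factors, GDF15 had a log2 fold change of 0.05 (edgeR adjusted p = 0.866). FGF21, the hormone of amino acid restriction, had 0 counts in all 8 libraries, which allows at most 3 counts or 0.0782 to 0.103 CPM in a library for counting error only. ADM2 had 6 and 2 counts in SMARCB1 Dox, 0 and 3 in SMARCB1 DMSO and 0 in the GFP libraries, so both genes were left untested.

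The values rested in part on SMARCB1 Dox replicate 1. Without it, the median log2 fold change of the members in the SMARCB1 line was 0.10, beside -0.01 over all genes. NUPR1, at -0.20 in the main fit, was called lower without it, at -0.38. The number of calls depended on the scaling. Library totals moved the median of all genes from 0.00 to 0.09. They called 2483 of all genes, 1986 of them higher, against 2234 in the main fit. Of the members, 13 were called, all higher. These were the 7 that rose above with ATF4, CEBPG, PSPH, MTHFD2, SLC3A2 and SLC7A1, while SLC38A2 was not called.

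**Figure D2:**
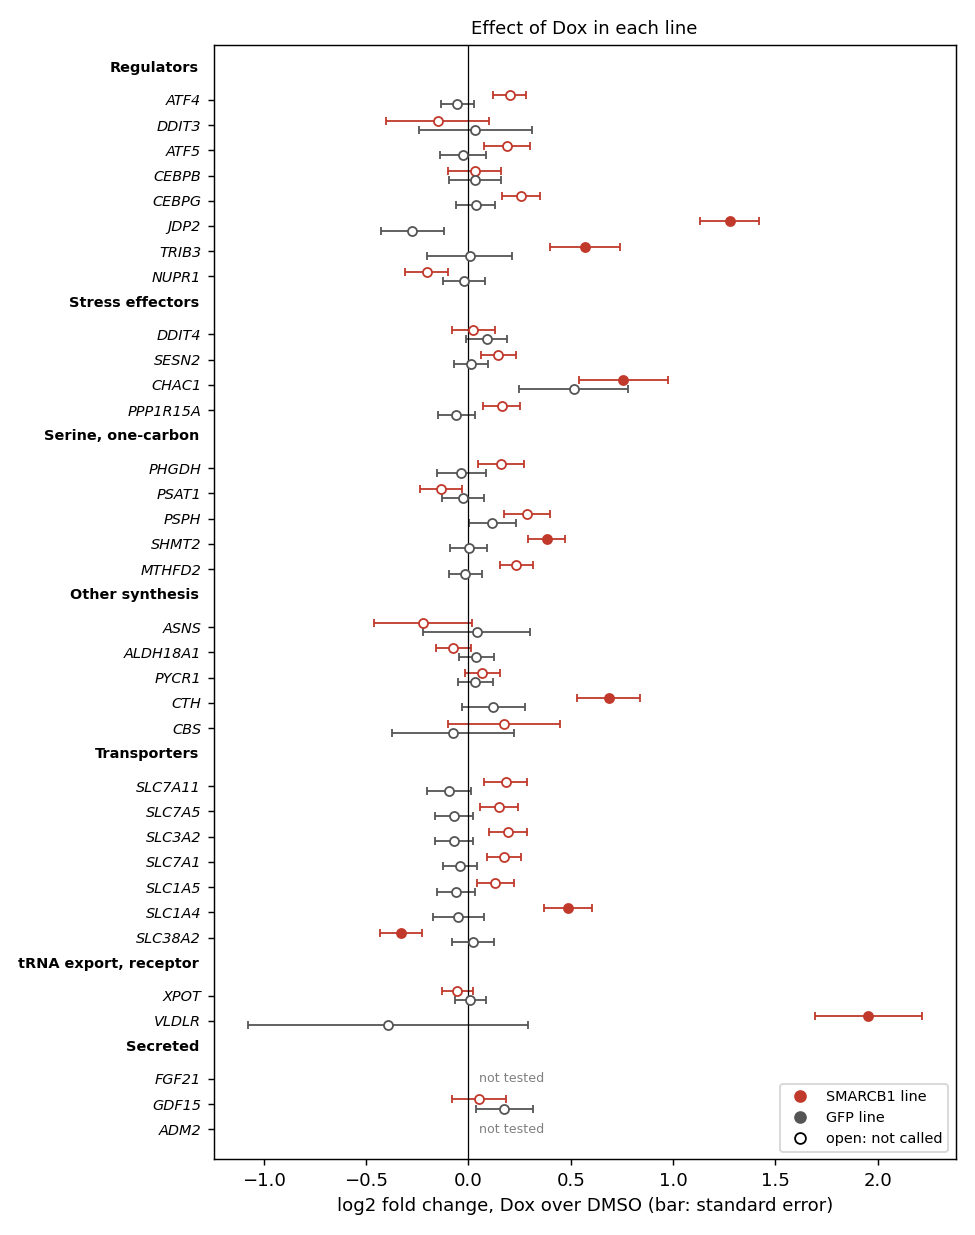
Log2 fold changes of Dox over DMSO (bars, standard error from edgeR) in each line for the members grouped by role, with filled symbols for called genes and FGF21 and ADM2 untested. In the SMARCB1 line the members lie between -0.33 (SLC38A2) and 1.96 (VLDLR) and 8 symbols are filled, whereas in the GFP line all symbols are open, with a median of -0.01.

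In the GFP line, the control for Dox itself, edgeR called none of the 32 tested members and 0% of all genes. At an unadjusted p under 0.05, it called 266 genes and 0 members, and DESeq2 also called 0 members. These 266 of 15931 genes are fewer than an even spread of p-values would give, so edgeR's test was strict in this line. The 0 calls therefore do not show that Dox had no effect there. The median log2 fold change of the members was -0.01. The members with the largest absolute values were CHAC1 (0.51) and VLDLR (-0.40, from the low counts given above). All 4 groups shared 1 estimate of the spread, but duplicates differed less in the GFP line. The chi-square per gene between duplicates was 9.51 in GFP Dox and 8.01 in GFP DMSO, against 13 in SMARCB1 Dox and 21.9 in SMARCB1 DMSO. The shared estimate can thus be too small for the SMARCB1 line. With edgeR fitted to the SMARCB1-line libraries alone, 7 members (all higher, without SLC38A2) and 1771 of all genes were called with Dox.

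The next comparison asked whether the effect of Dox differed between the lines. The effect on JDP2 was larger in the SMARCB1 line than in the GFP line by 1.55 on the log2 scale (SE 0.21, edgeR adjusted p = 9.07e-05). JDP2 moved by -0.28 in the GFP line (SE 0.15, edgeR adjusted p = 1), and the difference was called in all 15 alternatives, between 1.35 and 1.73. It was the only member called, or 3.12% of those tested, beside 4.71% of all genes, of which 3.07% had the larger effect in the SMARCB1 line and 1.64% the smaller. A share below that of all genes is no result about the list.

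For the other 7 members called in the SMARCB1 line, the difference itself did not pass the test. It was 2.35 for VLDLR (edgeR adjusted p = 0.0807), 0.54 for SLC1A4 (0.0831), 0.38 for SHMT2 (0.102), 0.57 for CTH (0.173), -0.36 for SLC38A2 (0.21), 0.57 for TRIB3 (0.304) and 0.24 for CHAC1 (0.817). With library totals, the difference passed for VLDLR (edgeR adjusted p = 0.0252), SLC1A4 (0.0237) and SHMT2 (0.0471), and for VLDLR also without the low-count filter (0.00345). The standard errors of these differences ran from 0.13 for SHMT2 to 0.74 for VLDLR. Whether VLDLR, SLC1A4 and SHMT2 responded differently in the lines thus depended on the processing, and for CHAC1 the measured effects in the lines were close. With 1 library left out, the difference was called for VLDLR (2.85 without SMARCB1 DMSO replicate 1 and 2.98 without GFP DMSO replicate 1), SLC1A4 (0.72 without SMARCB1 DMSO replicate 1), SHMT2 and SLC38A2 (0.46 and -0.55 without SMARCB1 DMSO replicate 2) and TRIB3 (1.15 without GFP Dox replicate 2). ATF4 had a difference of 0.26 (SE 0.11, edgeR adjusted p = 0.251).

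The lines were also compared without Dox. Of the 32 tested, 17 were higher in SMARCB1 DMSO than in GFP DMSO and 2 were lower. That is 59.4% of the members, beside 32% of all genes, of which 16.3% were higher and 15.7% lower. The median log2 ratio was 0.32 for the members and 0.02 for all genes. The lines differ in their transgene and in any change that arose while each was derived, and these cannot be told apart. SMARCB1 DMSO also serves as the control of the Dox effect, so the comparisons share libraries and were not correlated with each other.

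**Figure D3:**
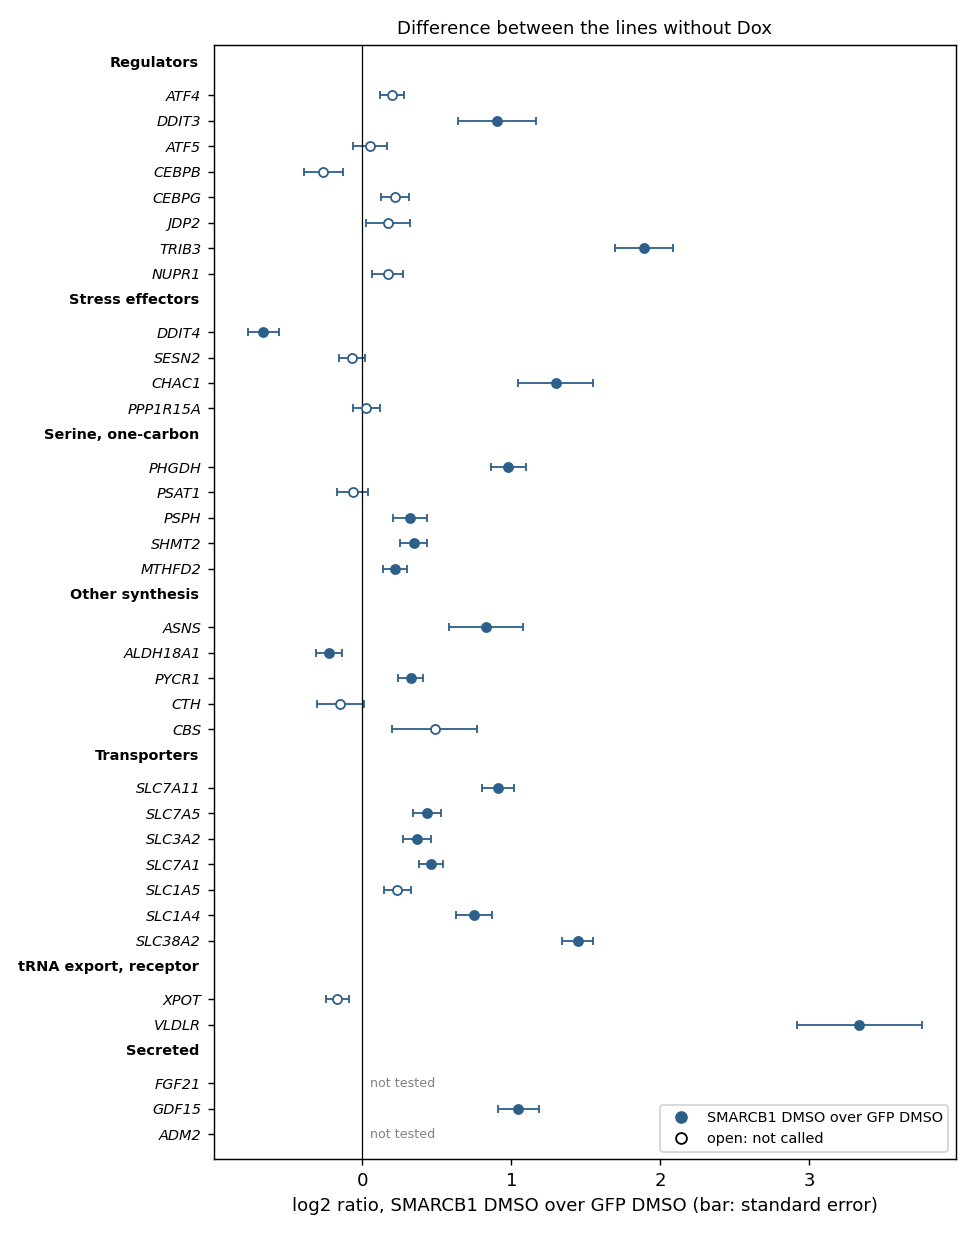
Log2 ratio of SMARCB1 DMSO over GFP DMSO (bars, standard error from edgeR) for the members by role, with filled symbols for called genes and FGF21 and ADM2 untested. VLDLR (3.34), TRIB3 (1.89), SLC38A2 (1.45) and CHAC1 (1.30) lie farthest to the right, and DDIT4 (-0.67) and ALDH18A1 (-0.23) are the called genes left of 0.

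The 4 largest log2 ratios belonged to genes whose library values are given above. VLDLR had a log2 ratio of 3.34 (SE 0.42, edgeR adjusted p = 1.63e-06). Its size depended on the low counts of the GFP line, with 2.71 without GFP DMSO replicate 1 and 4.70 without GFP DMSO replicate 2. TRIB3 had 1.89 (SE 0.19, edgeR adjusted p = 6.89e-08), SLC38A2 1.45 (SE 0.11, adjusted p = 2.57e-10) and CHAC1 1.30 (SE 0.25, adjusted p = 3.3e-04). These ratios share the SMARCB1 DMSO libraries with the Dox effects above, and SLC38A2 was highest in SMARCB1 DMSO replicate 1, on which the call of its fall with Dox rested.

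By role, 6 of 7 transporters were higher. SLC7A11 had a log2 ratio of 0.91, from 95 and 96.9 CPM in SMARCB1 DMSO against 42.9 and 59 in GFP DMSO. SLC1A4 had 0.75, SLC7A1 0.46, SLC7A5 0.43 and SLC3A2 0.37, and SLC1A5 had 0.23 without a call (edgeR adjusted p = 0.0556), but was called without GFP DMSO replicate 2 (0.33) or SMARCB1 DMSO replicate 2 (0.29). The call of SLC3A2 was lost without SMARCB1 DMSO replicate 1 and without GFP DMSO replicate 1.

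In serine and one-carbon metabolism, 4 of 5 genes were higher. PHGDH, the first enzyme of serine synthesis, had 0.98, from 40.5 and 49.1 CPM in SMARCB1 DMSO against 20 and 25.4 in GFP DMSO. SHMT2 had 0.35, PSPH 0.32 and MTHFD2 0.22, while PSAT1, the enzyme between PHGDH and PSPH in the pathway, had -0.06 (edgeR adjusted p = 0.688). PSPH did not pass with DESeq2 (0.31, DESeq2 adjusted p = 0.0791). With library totals, SHMT2 (0.23, edgeR adjusted p = 0.0681), PSPH (0.21, 0.198) and MTHFD2 (0.10, 0.423) did not pass. PSPH and SHMT2 were not called without GFP DMSO replicate 1 or without SMARCB1 DMSO replicate 2, and MTHFD2 was called in 8 of 16 alternatives, being lost without any of both GFP Dox libraries, both GFP DMSO libraries and SMARCB1 DMSO replicate 1.

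The other synthesis genes were mixed. ASNS was higher by 0.83 (edgeR adjusted p = 0.013) and PYCR1 by 0.32, ALDH18A1 was lower by a log2 ratio of -0.23, and CTH and CBS were not called. ASNS did not pass with DESeq2 (0.82, DESeq2 adjusted p = 0.0545), nor PYCR1 with library totals (0.21, edgeR adjusted p = 0.0958). The call of ASNS was lost without GFP DMSO replicate 1 or SMARCB1 DMSO replicate 2, that of PYCR1 without GFP DMSO replicate 1, and that of ALDH18A1 without any of both GFP Dox libraries, both SMARCB1 DMSO libraries and GFP DMSO replicate 2. Among the regulators, DDIT3 was called beside TRIB3, at 0.90 (edgeR adjusted p = 0.0111), but its ratio was 0.36 without SMARCB1 DMSO replicate 1, and it was also not called without GFP DMSO replicate 2. ATF4 (0.20, edgeR adjusted p = 0.0633) and JDP2 (0.17, adjusted p = 0.422) were not called, although ATF4 was called at 0.26 without SMARCB1 DMSO replicate 2. GDF15, a secreted stress hormone, was higher by 1.05 (edgeR adjusted p = 3.04e-06), at 69.1 and 51 CPM in SMARCB1 DMSO against 28.6 and 29.4 in GFP DMSO.

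DDIT4, which inhibits mTORC1, went the other way. It was at 17.3 and 19.9 CPM in SMARCB1 DMSO against 29.7 and 29.3 in GFP DMSO, with a log2 ratio of -0.67 (SE 0.10, edgeR adjusted p = 2.79e-05). The Dox libraries of each line stood beside their DMSO libraries, at 19.4 and 18.3 CPM in SMARCB1 Dox and 29.5 and 33.3 in GFP Dox. Scaled to library totals, which shifted the median log2 ratio of all genes from 0.02 to -0.10, 13 members were higher and 4 lower between the lines. Of all genes, 5390 were called there, 1732 of them higher. Without GFP DMSO replicate 1, the log2 ratio fell to 0.60 for ASNS, 0.32 for SLC3A2 and 0.27 for PYCR1. It fell to 0.24 for SHMT2, 0.175 for MTHFD2 and 0.17 for PSPH.

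Levels differed widely between members. Per kilobase of exon and averaged over the 8 libraries, PSAT1 was the most abundant at 226 CPM per kb, followed by SLC7A5 at 122, ATF4 at 91.1, SLC38A2 at 71.9 and SLC1A5 at 59.7. The order was not the same in every group. SLC38A2, at 113 CPM per kb in SMARCB1 DMSO, was above ATF4 at 94.4 there, and at 42.3 in GFP Dox and 41.6 in GFP DMSO it was below SLC1A5 and XPOT. The median of the 34 members was 12.1 CPM per kb. The genes at the low end were ASNS at 0.464, CBS at 0.272, VLDLR at 0.184 and ADM2 at 0.00923 CPM per kb, of which ASNS and CBS are uncertain for the shared exons and the copy described above. Reads of PSAT1, ATF4 and XPOT can also map to processed pseudogenes. The pseudogene with the most reads for each held 108 to 167 counts over all 8 libraries together. Reads that fit a gene and its pseudogene equally may be counted for neither, so these counts do not show how many were lost. The genes called with Dox in the SMARCB1 line ran from VLDLR to SLC38A2, with SHMT2 next below SLC38A2 at 28.2 CPM per kb. The more abundant PSAT1, SLC7A5 and ATF4 were not called.

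**Figure D4:**
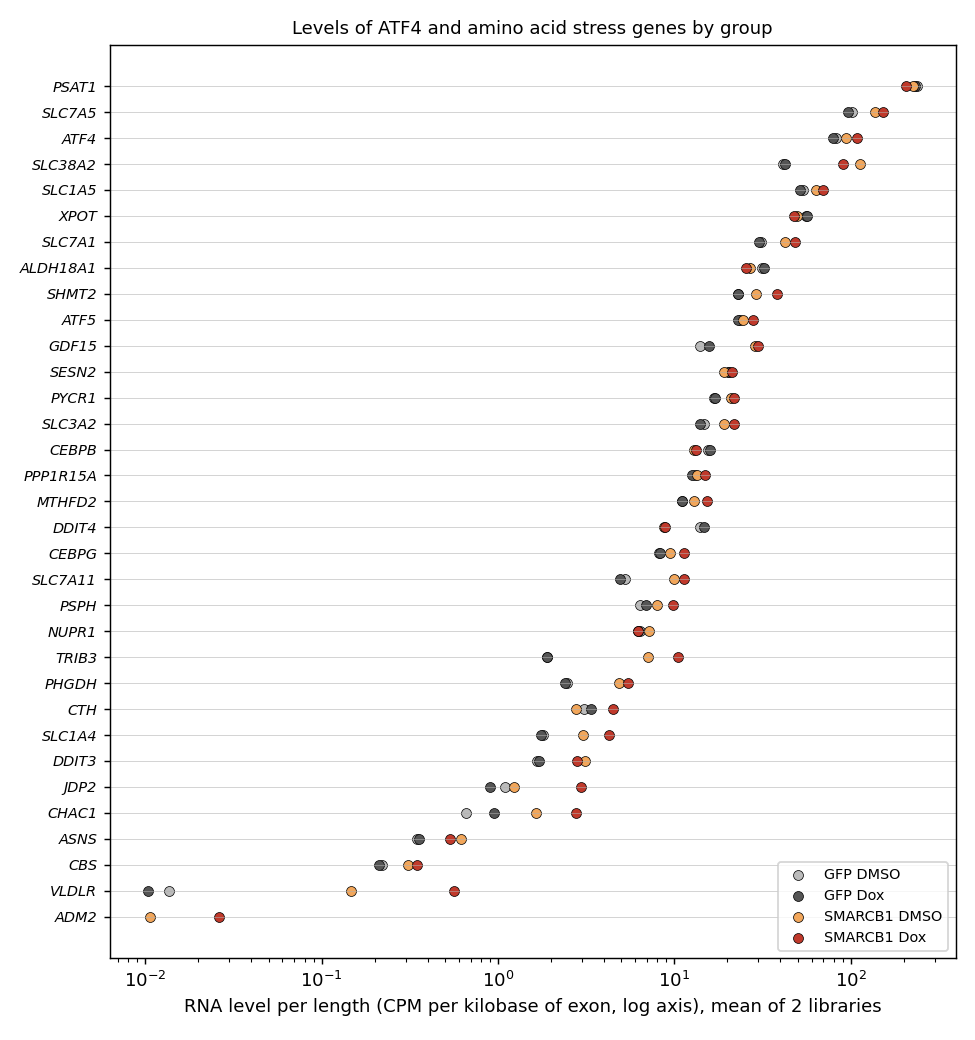
RNA level per length (CPM per kilobase of exon, log axis) of the 33 members with reads, with 1 point for the mean of the 2 libraries of each group and genes ordered by their mean over all libraries. PSAT1 lies at the top with 207 to 238 CPM per kb in all groups, and VLDLR spreads most, from 0.0104 in GFP Dox to 0.566 in SMARCB1 Dox.

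The members had a median exonic GC content of 52.9%, beside 47.7% for all genes tested.

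Other genes of the pathway were read from the same fit, in which 14% of all genes were called with Dox in the SMARCB1 line. Of 18 genes for the kinases, subunits and regulators of eIF2 signalling, 1 (5.56%) was called. It was OMA1, the mitochondrial protease that relays mitochondrial stress to eIF2, which fell by 0.50 on the log2 scale (edgeR adjusted p = 0.00142), from 26 and 25.6 CPM to 17.5 and 19.1. Of 12 cytosolic aminoacyl-tRNA synthetase genes, WARS1, for tryptophan, rose by 0.45 (edgeR adjusted p = 7.48e-04) and the other 11 were not called, a share of 8.33%. WARS1 was lower in SMARCB1 DMSO, at 141 and 158 CPM, than in the GFP groups, and at 200 and 208 CPM with Dox it reached their 193 to 211 CPM.

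Of 22 further ATF4 target genes, 20 were tested, 6 rose and 1 fell, which is 35% beside the 14% of all genes, with a median of 0.17. INHBE, a secreted activin subunit, rose by 2.30 (edgeR adjusted p = 0.00171), from 0.515 and 0.273 to 1.91 and 1.95 CPM, and the stanniocalcin gene STC2 by 1.37 (adjusted p = 0.00112), from 4.43 and 2.79 to 10.9 and 7.58 CPM. INHBE had 15 and 9 counts in SMARCB1 DMSO and moved by 0.66 in the GFP line. Its difference of the Dox effects, 1.64, was not called (edgeR adjusted p = 0.262). STC2 had 1 to 13 counts in the GFP libraries. Its difference, 1.89, was not called (edgeR adjusted p = 0.283) and was -0.67 without GFP DMSO replicate 2. SLC43A1, a leucine carrier, rose by 0.64 (edgeR adjusted p = 4.53e-04). ERO1A, an oxidase of the endoplasmic reticulum, fell by 0.36 (edgeR adjusted p = 0.011). Of 18 chaperone and quality control genes of the endoplasmic reticulum, EDEM1 rose by 0.36 (edgeR adjusted p = 0.00355) and 17 were not called (5.56% called), with a median of -0.08. Of 13 tested genes from the rest of one-carbon and glycine metabolism, GLDC rose by 0.50 (edgeR adjusted p = 0.0239) and MTR by 0.33 (adjusted p = 0.0205), a share of 15.4%. The shares of the eIF2 signalling, synthetase, chaperone and one-carbon lists were thus below or near that of all genes. The call of STC2 was lost with DESeq2 and without SMARCB1 Dox replicate 1, that of ERO1A without SMARCB1 Dox replicate 1 or SMARCB1 DMSO replicate 1, and those of GLDC and MTR without SMARCB1 DMSO replicate 1 or SMARCB1 Dox replicate 2. None of these lists had a call in the GFP line by edgeR or by DESeq2, and none held a gene with an unadjusted p under 0.05 there.

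Between the lines without Dox, where 32% of all genes were called, 13 of the 20 further ATF4 targets (65%) were called, 12 of them higher in the SMARCB1 line. The same comparison called 6 of 12 synthetase genes (50%, 5 higher) and 9 of 18 chaperone genes (50%, 8 higher). It called 4 of 18 eIF2 signalling genes (22.2%, 2 higher) and 4 of 13 one-carbon genes (30.8%, 1 higher), which are not above the share of all genes. Several chaperone genes were higher in SMARCB1 DMSO replicate 1, the library with the highest mitochondrial share, than in replicate 2. HSPA5 was at 453 and 335 CPM, against 303 and 298 in GFP DMSO, and HSP90B1 at 852 and 684, against 614 and 576. SEC61B, not called, went the other way (13.6 and 15). Without that replicate 1, the log2 ratio of EDEM1 fell from 0.32 to 0.25.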

How the data were processed

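Total RNA of 8 G401 libraries was sequenced by the study. The library chemistry is uncertain, since a directional RNA kit is given in the study's methods and a kit for ribosome profiling in the labels. The authors aligned reads to hg38 with STAR and deposited raw read counts per gene, made with HTSeq over exons in intersection-strict mode with GENCODE v42. Tool versions and the strand option are not given in the sources used here, so counts of overlapping, antisense and near-identical genes are uncertain. The deposited 5 entries that name no gene, 27% to 29.3% of reads, were left out.

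Symbols, positions and exon lengths came from GENCODE v44 (GRCh38) by Ensembl identifier, which matched 62625 of 69215 genes. edgeR 4.0.16 (R 4.3.3) was run on the counts of all 8 libraries with its default filter, TMM scaling and 1 mean per group, and p-values were adjusted over 15931 genes within each of 4 comparisons. Genes were called at an adjusted p under 0.05. CPM were computed from the counts with the TMM factors. Standard errors came from the fold change and the F statistic. The study's methods name DESeq2 (1.42.0 here), which was an alternative. Floors of 3 counts cover counting error only. The steps were tested on simulated counts.

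The members and lists were chosen with earlier results of these data known. Library values are given for members called with Dox in the SMARCB1 line or in the difference, for ATF4, DDIT3 and ASNS, and for the 4 largest called ratios between the lines. Of each other list, at most 2 called genes per direction with the largest fold changes are named. SLC43A1 and the values shown for other members between the lines were added after their values were seen. Promoter windows came from RefSeq, and 5 members had none there.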

Additional observations from a re-analysis of the deposited data

Results flagged for a closer look

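For JDP2, the effect of Dox differed between the lines by 1.55 on the log2 scale (edgeR adjusted p = 9.07e-05), with both SMARCB1 Dox libraries above the other 6. Among the other pathway genes, the effect differed for SLC43A1 by 0.67 (edgeR adjusted p = 0.0206, 11 of 15 alternatives), for WARS1 by 0.44 (adjusted p = 0.0311, 9 of 15 alternatives) and for OMA1 by -0.48 (adjusted p = 0.0493, 4 of 15 alternatives). SLC43A1 was at 40 and 40.5 CPM in SMARCB1 Dox, 25 and 26.6 in SMARCB1 DMSO, 12.9 and 15.1 in GFP Dox, and 12.4 and 16.1 in GFP DMSO. SLC43A1, WARS1 and OMA1 were 1 of 20 further ATF4 targets (5%), 1 of 12 synthetase genes (8.33%) and 1 of 18 eIF2 signalling genes (5.56%). The chaperone and one-carbon lists had none, and 4.71% of all genes were called. A single gene of a list is no result about the list. The cause of these differences was not tested.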

How the results depend on the processing

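No value called in the main analysis or in an alternative reversed its direction. Among values called in neither, 108 turned in sign over the 4 comparisons together. Those in the SMARCB1 line belonged to DDIT3 (-0.15 to 0.39 without SMARCB1 DMSO replicate 1), CEBPB (0.03 to -0.23 without SMARCB1 Dox replicate 1), DDIT4, GDF15, PYCR1, ALDH18A1 and XPOT. For Dox in the SMARCB1 line, 8 members were called in the main analysis, 13 (all higher) with library totals, 12 with the replicate number as a block, 11 (all higher, with a median log2 fold change of 0.10) with the replicate block and a GC trend removed, and 4 to 9 when a library was left out. For the difference of the Dox effects the count was 1, beside 750 of all genes. It was 4 with library totals (829 of all genes) and 2 without the low-count filter (920, with more genes tested). With the replicate block it was 4 (1282), and 4 with the block and GC trend removed (1216). Between the lines without Dox it was 19 (5105 of all genes), against 23 with the replicate block (5977) and 17 with library totals (5390). For the other pathway genes, 12 were called in the SMARCB1 line (2234 of all genes) and 19 with the replicate block (3149 of all genes). For their difference the count was 3, with 7 under the replicate block, 7 with the block and GC trend removed, and 0 to 6 when a library was left out. It was 0 without SMARCB1 Dox replicate 1, GFP Dox replicate 1 or GFP DMSO replicate 2. Between the lines their count was 36, and 22 (without GFP DMSO replicate 1) to 37 when a library was left out. The replicate block brought ATF4 (0.20, edgeR adjusted p = 0.0274), CEBPG, PSPH and MTHFD2 past the threshold in the SMARCB1 line, and VLDLR (0.0356), SLC1A4 (0.0252) and SHMT2 (0.00932) in the difference. With the GC trend removed as well, ATF4 and VLDLR were not called there. The causes of these changes were not tested. The replicate numbers were not shown to pair the libraries: deviations of libraries with the same number correlated between 0.03 and 0.15 over all 15931 genes. For the members alone this was not computed. PSAT1 was lower in replicate 1 than in replicate 2 in GFP Dox (479 and 550 CPM) and GFP DMSO (465 and 583). SLC38A2 was slightly higher in replicate 1 in both (279 and 272, 275 and 267). A shift of some members with replicate number is thus not excluded. Over the named genes, 2432 values kept their side of the threshold, 65 newly passed it under an alternative and 84 no longer did. With 2 libraries a group and few reads for VLDLR, CHAC1, DDIT3, ASNS and CBS, the precision of these genes was limited.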
